A study of Homo sapiens with 21 samples.

Results

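The pairs described here are those in which at least 1 of 2 restriction fragments caught together with a viewpoint lay more than 1 Mb from that viewpoint on the same chromosome. They are called far pairs below, and their counts far counts. Tri-C is a chromosome conformation capture assay in which cross-linked chromatin is cut with NlaIII, an enzyme that recognises CATG, and ligated, and molecules that contain a chosen viewpoint are pulled down with oligonucleotides. Each sequenced molecule that holds 2 or more further fragments gives one or more fragment pairs, and the count of a pair is the number of times it was seen. Of 16038041 pairs listed over 51 loci and 7 libraries, 7312600 were far pairs and 8725441 had both fragments within 1 Mb. The IFNGR2 and TASL loci were left out by the rule that chose the members.

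The cells were BLaER cells, a human B cell leukaemia line that turns into induced macrophages (iMacs) when estradiol switches on a C/EBPα transgene in the presence of IL-3 and CSF-1. The enhancer libraries, with an enhancer of each locus as viewpoint, were made without induction (0 h) and after 24 h and 96 h of induction. A further 96 h enhancer library came from the BLaER subclone CTCF-AID, in which CTCF carries a degradation tag, induced and given auxin over the same 96 h. The comparison of that library with the 96 h enhancer library of the parental line is a comparison of subclone and auxin together, and the effects of subclone, auxin and loss of CTCF cannot be told apart. The CBS libraries, with a CTCF-binding site of each locus as viewpoint, were made at 0, 24 and 96 h. All samples carried the C/EBPα transgene. Each of the 7 conditions had 3 biological replicates, which the authors had merged into 1 library per condition, so no spread between replicates can be given and every test below compares libraries, with an error that covers counting only. The counts hold no expression values, so the stage of the cells was not checked here. Of the 51 loci, 36 were chosen by the study around genes of the macrophage program (iMac loci) and 15 around genes of the B cell program (B cell loci). These lists were drawn up by the study with the same cell system, so a direction shared by a list is a description and not independent evidence.

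Contacts along a chromosome become rarer with distance. CTCF is a DNA-binding protein at which the cohesin complex halts as it reels in chromatin, and it thereby shapes contacts at short range. Contacts over many megabases are instead known to follow compartments, in which gene-rich active chromatin meets other active chromatin and inactive chromatin meets inactive chromatin. Pairs that reach far also hold molecules ligated by chance, which a Tri-C count cannot separate from contacts.

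Before the values, the placing of the viewpoint has to be stated. The viewpoint was put at the middle of the gap of at least 1 kb in the fragment list whose flanking fragments had the highest summed counts. In 18 of the 357 files this gap lay more than 1 Mb from the capture oligonucleotide: 4 files of CD14, 3 each of GAS7 and TNFSF10, 2 each of ATP8B4 and TRPS1, and 1 each of CD93, DDIT4, EPS8 and RBM47. In these files the gap that holds the oligonucleotide was used instead, and all gaps used then measured 1199 to 2512 bp. By the gap rule alone 7645131 pairs would have been far. The far share, which is the percentage of all counts of a library that are far counts, would then have been 38.8%, 31.9% and 39.2% in the CBS libraries at 0, 24 and 96 h, against 30.8%, 29.9% and 33.0% as used here.

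For each locus and kind of viewpoint, the leading fragment was taken as the one beyond 2 Mb that was paired with the most distinct fragments, a choice made after the values were seen. Of those 18 gaps, 17 touched the leading fragment, and the gap rule itself picks gaps beside highly counted fragments. At the CBS viewpoints of RBM47 and CD14 that fragment had only 1.53 and 1.43 times the partners of the next. In 24 of 102 combinations of locus and kind the leading fragment had at least 2 times the partners of the next, 13 of them at CBS viewpoints and 11 at enhancer viewpoints. In 22 of these 24 it had fewer than 20 counts in the libraries of the other kind of viewpoint. In 16 of the 24 it shared an identical run of 15 or more bases with the gap around the viewpoint, on either strand, and 13 of these runs lay exactly 2 times on their chromosome. Among the remaining 78 combinations, 24 shared such a run and 8 of those runs lay 2 times. The following fragments are printed because they show this pattern at both kinds of viewpoint and in a small space, 5′ to 3′ on the plus strand of hg38, with the run shared with the viewpoint gap in capitals.
CD93, CBS viewpoint, chr20:20394652-20394802: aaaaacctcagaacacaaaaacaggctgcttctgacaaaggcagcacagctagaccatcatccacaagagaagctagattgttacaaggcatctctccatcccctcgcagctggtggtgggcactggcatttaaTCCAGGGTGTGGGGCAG
RORB, CBS viewpoint, chr9:78400778-78400984: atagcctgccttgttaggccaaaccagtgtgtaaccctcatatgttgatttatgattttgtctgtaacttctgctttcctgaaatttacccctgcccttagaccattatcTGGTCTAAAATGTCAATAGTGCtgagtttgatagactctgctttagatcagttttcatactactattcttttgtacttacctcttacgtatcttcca
CD14, enhancer viewpoint, chr5:152846679-152846750: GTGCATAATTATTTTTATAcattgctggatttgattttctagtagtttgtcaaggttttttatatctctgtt

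The CD93 fragment lies in an intron of RALGAPA2, 2.30 Mb from the CBS viewpoint of CD93, which encodes a surface receptor of myeloid cells. It had 544 partners against 13 for the next fragment, and its counts were 168, 208 and 194 in the CBS libraries at 0, 24 and 96 h and 0, 0, 3 and 0 in the enhancer libraries at 0 h, 24 h, 96 h and 96 h with CTCF depletion. Its shared run measured 17 bases.

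The RORB fragment, 4.09 Mb from the viewpoint, had 82 partners and a run of 22 bases, with 24, 30 and 28 counts in the CBS libraries and 0, 2, 2 and 0 in the enhancer libraries. The CD14 fragment, 12.2 Mb from the enhancer viewpoint in an intron of the lncRNA gene LINC01470, showed the same split the other way round. It had 683 partners and a run of 19 bases, with 215, 200, 161 and 155 counts in the enhancer libraries and 0, 1 and 0 in the CBS libraries. These 3 fragments were thus seen almost only at one kind of viewpoint, and there in every library. Whether ligation, capture or alignment at the shared run gave their counts was not tested. Leaving out the 20 leading fragments of each locus and kind changed the far shares of the libraries by little, from 36.9% to 36.8% in the 0 h enhancer library, and moved no count of called loci by more than 1.5 times.

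A further stretch is printed because it holds far fragments that recurred in every library. Single far fragments rarely recurred: of 5605489 far fragments summed over loci, 15128 (0.270%) were seen in all 7 libraries and 75.8% in 1 library. Among those seen in all 7 and lying outside 10 kb of any viewpoint, 3 neighbouring fragments, with the highest, the third and the fourth highest count, belonged to ATP8B4, which encodes a phospholipid-transporting ATPase, and lie in an intron of SHC4 about 1.2 Mb from the enhancer viewpoint. The stretch that holds them, with the CATG cut sites between them in capitals, reads as follows on the plus strand of hg38.
ATP8B4, intron of SHC4, chr15:48861247-48861428: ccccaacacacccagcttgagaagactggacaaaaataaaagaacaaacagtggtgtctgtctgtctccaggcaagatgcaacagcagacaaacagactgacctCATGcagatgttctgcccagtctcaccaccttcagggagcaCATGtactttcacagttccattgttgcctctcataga

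The first of the SHC4 fragments had 21, 32, 26 and 19 counts in the enhancer libraries at 0 h, 24 h, 96 h and 96 h depleted and 144, 220 and 208 counts in the CBS libraries at 0, 24 and 96 h. All 3 CBS values lay above all 4 enhancer values. The CBS viewpoint of ATP8B4 lies 1.28 Mb from it. In the CBS libraries of this locus a single 100 kb window at 1.2 to 1.3 Mb from the viewpoint held 12.6% to 12.8% of all far fragment ends, so the counts there were not those of a single fragment.

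The last of the 5 highest, at KDM7A, chr7:11706982-11707381 in an intron of THSD7A, lies 129 Mb from the viewpoint and had 26, 23, 27 and 116 counts in the enhancer libraries and 92, 88 and 62 in the CBS libraries. For KDM7A, which encodes a histone demethylase, the depleted library was the one enhancer library at the level of the CBS libraries.

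The libraries held 3053885 to 5273712 counts in all and 939657 to 2092416 far counts. The far share was 36.9%, 36.8% and 37.8% in the enhancer libraries at 0, 24 and 96 h and 39.7% in the depleted library, and 30.8%, 29.9% and 33.0% in the CBS libraries at 0, 24 and 96 h. The exact Clopper-Pearson 95% intervals of these pooled shares were narrow (36.89% to 36.98% in the 0 h enhancer library) and cover counting error only, since reads without molecular identifiers are not independent molecules and 1 molecule can give several pairs. Each enhancer library lay above each CBS library. By the gap rule alone this order turned in part, with 38.07%, 37.74% and 38.72% in the enhancer libraries of the parental line against 38.77%, 31.88% and 39.21% in the CBS libraries. No gap in the counts marked the 1 Mb limit: pairs whose farther fragment lay at 0.9 to 1.0 Mb made up 1.21% to 1.91% of all counts of a library, and those at 1.0 to 1.1 Mb 1.03% to 1.66%.

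Loci differed far more than libraries. In the 0 h enhancer library the far share ran from 15.9% at IGLL5 to 53.6% at TNFSF10, with a median of 35.7% over the 51 loci. Among the lowest were IGLL5, which encodes an immunoglobulin lambda-like polypeptide, PAX5 (23.5%), the B lineage transcription factor, IGLL1 (24.3%), a part of the pre-B cell receptor, and IRF8 (24.9%), a transcription factor of myeloid and B cells. The highest were TNFSF10 (53.6%), which encodes the death ligand TRAIL, the NF-κB regulator NFKBIZ (49.96%), the transcription factor TRPS1 (49.2%), the coactivator CITED2 (47.6%) and PTPRC (46.5%), which encodes CD45.

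IGLL5, IGLL1 and IRF8 were among the 5 lowest, and TNFSF10, TRPS1 and CITED2 among the 5 highest, at both kinds of viewpoint at 0 h. In the CBS library at 0 h the lowest far shares included those of IGLL5 (9.75%), IRF8 (16.3%), IGLL1 (16.6%) and CEBPA (17.1%), the factor that drives the conversion. The highest were BCL11A (53.5%), a B lineage transcription factor, KLF4 (51.8%), TRPS1 (48.8%), TNFSF10 (47.8%) and CITED2 (45.8%). IGLL5 had the lowest far share in each of the 7 libraries. The range over loci was widest in the 96 h CBS library, at 12.0% to 65.1%.

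Part of this order went with how much chromosome there is. The 9 loci on chromosomes shorter than 85 Mb had a median far share of 27.2% in the 0 h enhancer library, against 38.2% for the other 42. Over the 51 loci, which share 19 chromosomes and 1 library, chromosome length and far share had a Pearson r of 0.58 at 0 h, and 0.48 to 0.59 over the 7 libraries. This is a description of the loci captured here.

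**Figure D1:**
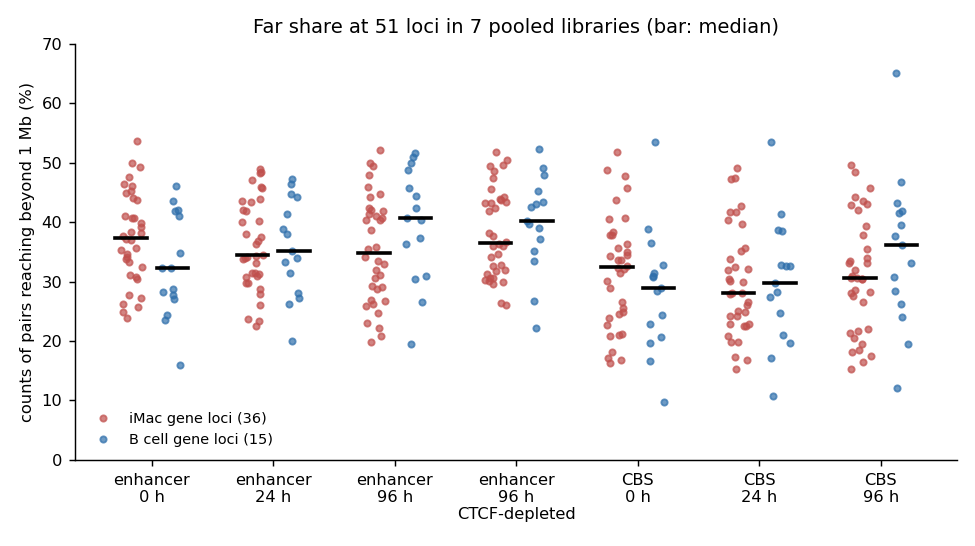
Far share, the percentage of a locus's counts that come from pairs reaching beyond 1 Mb, at each of 51 loci in the 7 pooled libraries. Each point is 1 locus, red for the 36 iMac loci and blue for the 15 B cell loci, and the bar is the median of the list. The B cell median rises from 32.3% to 40.8% over the enhancer time course and the point at 65.1% in the 96 h CBS library is BCL11A.

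The plot of far share by locus shows the lists crossing over the time course. In the enhancer libraries iMac loci had a median of 37.4%, 34.4% and 34.8% in order of time, and that of the B cell loci 32.3%, 35.1% and 40.8%. In the CBS libraries the medians were 32.5%, 28.1% and 30.6% for iMac loci and 28.9%, 29.8% and 36.1% for B cell loci.

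Far pairs fell into those with 1 fragment beyond 1 Mb, the other staying near the viewpoint, and those with both beyond. Both fragments were far in 56.3% to 57.7% of far counts in the 3 enhancer libraries of the parental line, in 52.2% to 55.2% in the CBS libraries and in 68.8% in the depleted library. Most of the pairs with both far were short themselves: pairs whose fragments lay within 10 kb of each other made up 33.5% to 34.5% of far counts in the enhancer libraries, 32.3% to 34.7% in the CBS libraries and 51.01% in the depleted library. Such a pair is 1 distant place caught with the viewpoint by neighbouring fragments.

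Pairs of directly adjacent fragments alone made up 22.9% to 25.1% of far counts in the other 6 libraries and 38.0% in the depleted library. Adjacent fragments were also more frequent among the pairs within 1 Mb there, at 51.6% against 35.8% to 39.1%. A molecule in which a cut site was left uncut gives the same pair as 2 ligated neighbours, so the completeness of digestion and contact cannot be told apart in these counts. The depleted library also held more counts per far pair, 1.56 against 1.198 to 1.327, and fewer far pairs counted once, 64.4% against 78.4% to 85.2%.

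Pairs reaching beyond 1 Mb on both sides of the viewpoint were rare, at 3.2% to 4.0% of far counts. Where 1 fragment was far, the other lay within 10 kb of the viewpoint in 7.0% to 11.4% of far counts, and more than 100 kb from it in 13.7% to 25.3%. The last share was 22.6% to 25.3% in the CBS libraries and 13.7% to 17.2% in the enhancer libraries.

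Far pairs seldom came back from one library to another. In the 3 enhancer libraries of the parental line 0.444% of the pairs with 1 far fragment were seen in 2 or more libraries, and 0.466% in the CBS libraries. Pairs with both fragments far and more than 10 kb apart came back in 0.157% and 0.147%. Pairs with both far and within 10 kb of each other came back most often, at 4.88% and 5.89%. Over 1 Mb bins the far profiles of a locus were alike between libraries, with median Pearson r over 51 loci of 0.94 to 0.96 and a lowest value of 0.82, at KLF6. Bins share the decay with distance and the depth of the locus, so these values are a description.

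**Figure D2:**
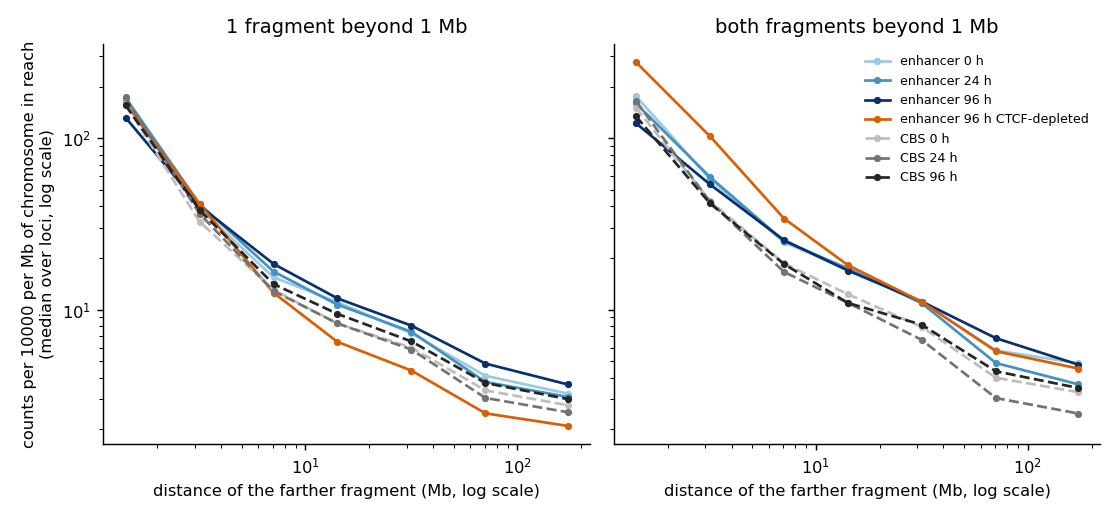
Far counts by distance of the farther fragment from the viewpoint, on log scales, as counts per 10000 counts of the locus per Mb of chromosome within reach, median over loci. Pairs with 1 far fragment are on the left and with both far on the right, with 1 line for each of the 7 libraries. The depleted library (orange) is lowest beyond 10 Mb on the left and highest at 1 to 2 Mb on the right.

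Far counts fell with distance in all 7 libraries. For pairs with 1 far fragment the median density over loci was 132 to 173 counts per 10000 counts and Mb at 1 to 2 Mb. At 100 to 300 Mb, where 31 loci have chromosome to reach, it was 2.09 in the depleted library and 2.52 to 3.65 in the others. For pairs with both far the density at 1 to 2 Mb was 278 in the depleted library and 122 to 176 in the others. The plot of far counts by distance shows that beyond 50 Mb the depleted library lay within the enhancer libraries for pairs with both far, and below every library for pairs with 1 far.

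The first question of the time course is whether the far share of a locus changed as B cells became iMacs. For each locus, far counts and all other counts of the 2 libraries were compared with Fisher's exact test (two-sided, Benjamini-Hochberg over the 51 loci), and a locus was called at an adjusted p under 0.05 with an odds ratio of at least 1.2. The test compares 2 libraries and not the conditions, and the required odds ratio keeps a call from resting on depth alone. After 24 h in the enhancer libraries, 6 of 51 loci were called higher (11.8% of the loci tested) and 5 lower (9.80%). All 6 higher were B cell loci (6 of 15) and all 5 lower were iMac loci (5 of 36).

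EBF1, which encodes a factor required for B cell identity, had the largest rise at 24 h, from 27.1% to 38.9%. IGLL5 went from 15.9% to 20.1%, and IL7R, the interleukin-7 receptor of early B cells, from 27.8% to 33.3%. The largest falls were at KDM7A, from 41.1% to 34.5%, DDIT4, from 35.3% to 29.8%, GAS7, from 30.4% to 26.1%, and RBM47, from 39.2% to 34.3%. DDIT4, GAS7 and RBM47 are loci with a misplaced gap in some file, and without such loci 1 locus was called lower.

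After 96 h in the enhancer libraries, 10 of 51 loci were called higher (19.6%) and 12 lower (23.5%). The 10 were all B cell loci and the 12 all iMac loci. All 15 B cell loci had a log2 odds ratio above 0, with a median of 0.36, while 24 of 36 iMac loci lay below 0, with a median of -0.09. Over all 51 loci the median was 0.09.

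EBF1 again led, with far shares of 27.1%, 38.9% and 44.4% at 0, 24 and 96 h and a log2 odds ratio of 1.104 (95% interval 1.078 to 1.129) at 96 h against 0 h. IRAG2, a lymphoid membrane protein gene, had 28.8%, 34.0% and 42.4% and a log2 odds ratio of 0.87 (0.83 to 0.90). IL7R reached 40.3% at 96 h (0.81, 0.78 to 0.84). RAG2, one of the V(D)J recombinase genes, had 41.0%, 44.3% and 50.9% (0.58, 0.55 to 0.61).

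All 4 loci of the B lineage transcription factors were called higher at 96 h: EBF1, PAX5 (23.5% to 31.0%), BCL11A (43.6% to 51.7%) and MYB (42.1% to 48.8%). A further list of 7 loci was named B cell receptor and recombination, though not all of its members, CD38 for example, are such genes. In it 4 were called higher, and BLK, CD38 and IGLL1 had log2 odds ratios above 0 that did not pass. None of the 15 B cell loci was called lower.

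Among iMac loci the 13 transcription regulators held 7 of the 12 falls. KLF6, a zinc-finger factor of myeloid cells, had 30.9%, 31.4% and 22.1% (-0.65, -0.68 to -0.62), and the AP-1 member FOSL2 40.6%, 36.4% and 31.1% (-0.60, -0.64 to -0.56).

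Outside the transcription regulators the largest fall at 96 h was that of ITGAX, the integrin CD11c, with 33.4%, 31.3% and 26.2% (-0.49, -0.53 to -0.46). NFKBIZ went from 49.96% to 42.4%. CCR1, a chemokine receptor of monocytes, went from 26.2% to 20.9%. By contrast LMO2 (37.2% and 38.8%), IRF8 (24.9% and 24.7%) and TRIB1 (44.1% and 41.1%) were not called. With far set at 2 Mb the median of the iMac loci was 0.03 and not -0.09, and 12 loci were called higher and 8 lower.

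The CBS viewpoints of the same loci were captured in libraries of their own, so they give a second measurement that shares no library with the enhancer time course. At 24 h, 5 of 51 loci were called higher (9.80%) and 9 lower (17.6%). The higher ones included IL7R (24.3% to 29.8%), RAG2 (32.8% to 38.8%) and CREG1 (35.6% to 40.3%), a secreted glycoprotein gene. The lower ones were led by CD14, the lipopolysaccharide co-receptor (38.4% to 28.1%), KDM7A (34.3% to 26.1%), SRGN, the proteoglycan of myeloid granules (32.1% to 24.96%), and TNFSF10 (47.8% to 39.7%).

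At 96 h in the CBS libraries 20 loci were called higher (39.2%) and 7 lower (13.7%). Of the B cell loci 13 of 15 were called higher and none lower, and all 15 had a log2 odds ratio above 0, with a median of 0.39. Of the iMac loci 7 were higher and 7 lower. All 7 loci of the list named B cell receptor and recombination were called higher.

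RAG2 had 32.8%, 38.8% and 46.7% in the CBS libraries at 0, 24 and 96 h, with a log2 odds ratio of 0.84 (0.81 to 0.87) at 96 h. IRAG2 had 28.9%, 32.8% and 41.9% (0.83, 0.77 to 0.88) and BCL11A 53.5%, 53.4% and 65.1% (0.69, 0.66 to 0.72). BCL11A thus stayed level to 24 h and was higher at 96 h, while RAG2, IRAG2 and IL7R (24.3%, 29.8% and 33.1%) were higher at each later time.

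The largest falls at the CBS viewpoints included CD14 (38.4% to 30.6%), EPS8, an actin regulator (33.6% to 26.5%), and TRIB1, a pseudokinase gene (34.4% to 27.7%). CD14 and EPS8 are loci with a misplaced gap in some file, and without the 9 such loci 3 loci were called lower.

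At 96 h 8 loci were called higher at both kinds of viewpoint, which is 80.0% of the 10 enhancer calls and 40.0% of the 20 CBS calls. All 8 were B cell loci, BCL11A, DNTT, EBF1, IGLL5, IL7R, IRAG2 and RAG2 among them. TRPS1 was among the loci called lower at both, which made up 16.7% of the enhancer calls and 28.6% of the CBS calls. ITGAX, lower at the enhancer, had 32.7%, 32.4% and 33.2% at the CBS viewpoint and was not called there.

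**Figure D3:**
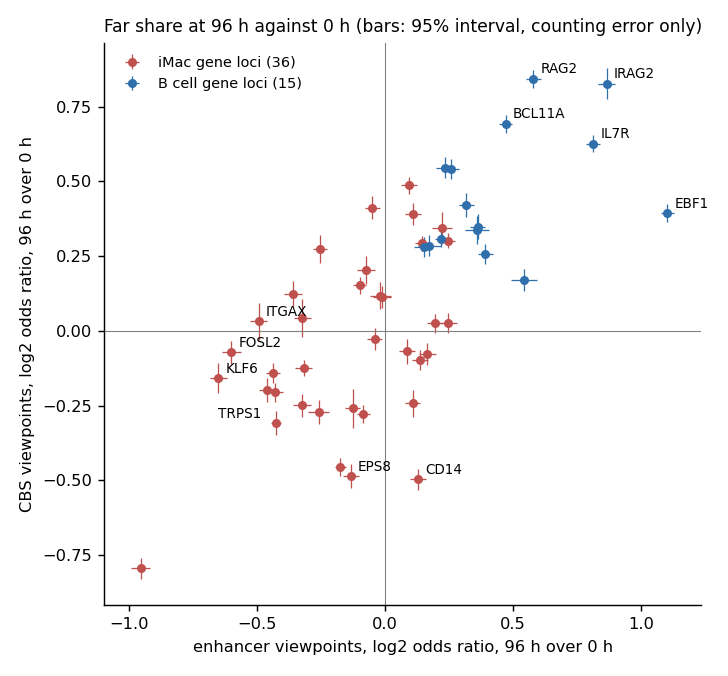
Change in far share from 0 h to 96 h at the enhancer viewpoint (x axis) and at the CBS viewpoint (y axis) of each of 51 loci, as log2 odds ratios. Red points are iMac loci, blue points B cell loci, and the bars are 95% intervals for counting error only. All 15 B cell loci lie above 0 on both axes.

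In the plot of changes at both viewpoints the B cell loci fill the upper right part and the iMac loci spread around 0. The counting intervals are far smaller than the distances between loci. How much of a change a repeat of the whole experiment would give cannot be read from them.

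The far share at the CBS viewpoint was next compared with that at the enhancer viewpoint of the same locus. At 0 h 34 of 51 loci were called lower (66.7%) and 5 higher (9.80%), at 24 h 36 lower (70.6%) and 3 higher (5.88%), and at 96 h 37 lower (72.5%) and 6 higher (11.8%). At 0 h the largest differences were at BCL2, the survival gene (32.3% at the enhancer and 19.7% at the CBS viewpoint), FRAT2 (34.2% and 22.8%), IGLL5 (15.9% and 9.75%) and CD93 (27.7% and 18.2%). At 24 h PELI1, a ubiquitin ligase gene (43.9% and 28.1%), and CEBPA (27.9% and 16.9%) joined IGLL5 and BCL2 as the largest. At 96 h EPS8 (41.4% and 26.5%) and IL10RA, the interleukin-10 receptor (29.3% and 18.2%), did so with CEBPA and TRIB1.

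KLF4, KLF6 and BCL11A went the other way at each time. KLF4, a factor of monocyte differentiation, had 33.9% at the enhancer and 51.8% at the CBS viewpoint at 0 h, a log2 odds ratio of 1.070 (1.040 to 1.099). KLF6 had 30.9% and 40.5%, BCL11A 43.6% and 53.5% and PAX5 23.5% and 28.4%. At 96 h ITGAX was called as well, with 26.2% and 33.2%.

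At KLF4 and KLF6 these CBS counts were not spread over the chromosome. In the 3 CBS libraries 60.7% to 66.8% of the far counts of KLF4 and 58.3% to 62.7% of those of KLF6 lay at 1 to 2 Mb. A single 100 kb window from 1.0 to 1.1 Mb held 13.9% to 18.9% of the far fragment ends of KLF4, and one at 1.4 to 1.5 Mb toward lower coordinates held 17.2% to 19.0% for KLF6. In the 4 enhancer libraries the top window held 4.59% to 8.18% at KLF4 and 2.26% to 4.19% at KLF6. The 2 kinds of viewpoint lie at different places. The enhancer gap holds position 107750389 at KLF4 and 4132391 at KLF6, and the CBS gap 107480337 and 4657189. Both CBS windows thus lay within 1 Mb of the enhancer viewpoint, where they cannot count as far. How much of the difference in far share came from this was not tested. With far set at 2 Mb, 1, 0 and 1 loci were called higher at the CBS viewpoint at 0, 24 and 96 h. With far set at 0.5 Mb, 11 loci were called higher and 21 lower at 24 h, and 13 higher and 17 lower at 96 h.

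The next question is how the far share at 96 h differed between the depleted library and the control. Here 15 of 51 loci were called higher (29.4%) and 4 lower (7.84%). Among the largest were KLF6, from 22.1% in the control to 32.7% in the depleted library (log2 odds ratio 0.77, 0.74 to 0.80), RBPJ, the Notch pathway factor, from 33.0% to 44.3% (0.69, 0.66 to 0.72), and IL10RA, from 29.3% to 38.2% (0.58, 0.55 to 0.61). Of the iMac loci 13 of 36 were higher and 3 lower, and of the B cell loci 2 of 15 were higher and 1 lower.

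KLF6 had a far share in the depleted library (32.7%) near that of the parental line at 0 h (30.9%). The values are given side by side, since both comparisons use the 96 h control library. The loci called lower were KDM7A (35.8% to 29.6%), PAX5 (31.0% to 26.8%), ATP8B4 (40.7% to 36.05%) and CREG1 (48.0% to 43.4%).

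These calls depended on what was counted as far. With far set at 2 Mb, 3 loci were called higher and 12 lower. With only pairs of 2 far fragments, 41 were higher and 0 lower, with each pair counted once 37 and 0, and without pairs of fragments within 10 kb of each other 24 and 0. More loci were thus called higher than lower under each way of counting pairs, and more lower than higher with the limit at 2 Mb.

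Spread was measured as the share of far counts whose farther fragment lay beyond 10 Mb with the far total as denominator. This share falls where counts at 1 to 10 Mb rise, so the counts beyond 10 Mb were also taken as a share of all counts of the locus, a measure added after the values were seen. Pooled over loci the share of far counts beyond 10 Mb was 51.5%, 50.3% and 54.6% in the enhancer libraries at 0, 24 and 96 h and 41.5% in the depleted library. In the CBS libraries it was 46.3%, 42.5% and 46.1%. The median over loci of the median far distance was 12.7, 11.1, 14.6 and 6.62 Mb in the enhancer libraries in the same order and 8.94, 7.05 and 8.35 Mb in the CBS libraries. The depleted library was the lowest in this pooled share of far counts and in the median far distance, and 24 h was the lowest time of each parental course.

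In the depleted library all 51 loci had a lower share of far counts beyond 10 Mb than in the control, and 50 of them were called lower (98.0% called lower, 0.00% called higher). As a share of all counts, those beyond 10 Mb were called lower at 37 loci (72.5%) and higher at 1 (1.96%). The median log2 odds ratio was then -0.37 over all 51 loci, -0.36 over the 36 iMac loci and -0.41 over the 15 B cell loci. With far counts as denominator these medians were -0.72, -0.79 and -0.60, and the shares that follow have this denominator. The largest differences included KLF6 (57.1% to 30.9%, log2 odds ratio -1.58 with an interval of -1.63 to -1.52), CD163, the haemoglobin scavenger receptor (61.5% to 39.0%), and RBPJ (66.9% to 45.5%). ATP8B4, with 32.01% and 31.6%, was the one locus not called.

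**Figure D4:**
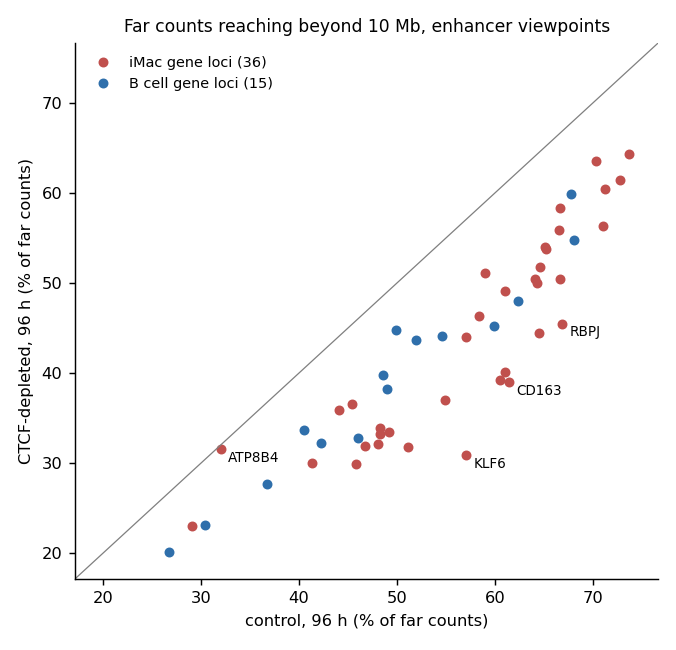
Share of far counts whose farther fragment lay beyond 10 Mb at the 51 enhancer viewpoints, in the 96 h control library (x axis) and the 96 h CTCF-depleted library (y axis). Red points are iMac loci, blue points B cell loci, and the line marks equal shares. All 51 points lie below the line, ATP8B4 (32.01% and 31.6%) closest to it and KLF6 (57.1% and 30.9%) far below.

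The plot of the depleted against the control library shows a shift of the whole set. With far counts as denominator the count of loci called lower was 48 to 50 of 51 under the alternatives tried, 49 without pairs of fragments within 10 kb of each other and 42 of 42 without the loci of a misplaced gap. The larger part of adjacent fragments in the depleted library, given above, moved with this result over all loci, and 1 library against 1 cannot tell subclone, auxin, CTCF and library quality apart.

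Over the time course the share was compared by list. At the enhancer viewpoints 5 loci were called higher (9.80%) and 9 lower (17.6%) at 24 h, 8 of the 9 being B cell loci. With all counts as denominator, 4 loci were called higher (7.84%) and 1 lower (1.96%) at 24 h. Of the B cell loci 2 were then higher and 0 lower, with a median log2 odds ratio of 0.01. With far counts as denominator, 25 loci were called higher at 96 h (49.0%) and 4 lower (7.84%). Of the 36 iMac loci 24 were called higher, none lower, and 35 had a log2 odds ratio above 0. Among B cell loci 1 was higher and 4 lower. As a share of all counts, those beyond 10 Mb were called higher at 9 of 36 iMac loci and lower at 3 at 96 h, and higher at 8 of 15 B cell loci and lower at none (33.3% of all loci called higher, 5.88% lower). With far counts as denominator the medians were -0.02 for B cell loci and 0.40 for iMac loci, and with all counts 0.29 and 0.09, so the order of the lists turned with the denominator.

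RBPJ had 51.9%, 53.9% and 66.9% of its far counts beyond 10 Mb at 0, 24 and 96 h (log2 odds ratio at 96 h 0.90, 0.86 to 0.95). TNFSF10 had 55.3%, 62.2% and 66.6% and LMO2, a factor of haematopoietic progenitors, 61.2%, 66.99% and 70.3%. IL10RA went from 50.95% to 61.0%. Among the largest rises at 24 h was that of CD93 (38.9% to 47.4%).

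IRAG2 had a smaller part of its far counts beyond 10 Mb at each later time, with 57.7%, 46.8% and 42.2% (log2 odds ratio at 96 h -0.90, -0.95 to -0.84). IL7R had 61.1%, 51.8% and 51.9%, RORB, a nuclear receptor gene, 45.1%, 39.9% and 36.8%, and BCL2 53.9%, 51.7% and 48.6%. The far share of IRAG2 and IL7R was higher at 96 h. As a share of all counts, those beyond 10 Mb went from 16.6% to 17.9% at IRAG2 and from 16.97% to 20.95% at IL7R, so they did not fall at either locus. At RORB this share went from 20.8% to 18.4% and at BCL2 from 17.4% to 17.6%. At 24 h DNTT, the template-independent DNA polymerase of lymphocytes (59.96% to 53.5%), was also among the largest falls.

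In the CBS libraries no locus was called higher at 24 h (0.00%) and 17 lower (33.3%). The test at an unadjusted p under 0.05 passed 43 loci in either direction, and without a required odds ratio 1 locus was called higher. IRAG2 (47.4% to 38.2%), PAX5 (69.8% to 62.6%), MPEG1, which encodes perforin-2 (62.3% to 55.5%), and EBF1 (58.4% to 51.7%) fell most. At 96 h 12 loci were called higher (23.5%) and 6 lower (11.8%). Of the iMac loci 11 of 36 were higher and 2 lower, with 13 below 0 and a median of 0.11, and of the B cell loci 1 of 15 was higher and 4 lower. With all counts as denominator, 12 loci were called higher (23.5%) and 4 lower (7.84%) at 96 h. Of the B cell loci 9 of 15 were then higher and 0 lower, with a median log2 odds ratio of 0.31. Of the iMac loci 3 were higher and 4 lower. At 24 h this measure gave 0 loci higher (0.00%) and 19 lower (37.3%).

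The values that follow have far counts as denominator. At 96 h the rises at the CBS viewpoints were led by FOSL2 (60.1% to 68.1%), TNFSF10 (52.4% to 61.0%), IL10RA (52.0% to 59.7%) and KDM7A (56.2% to 62.4%). The falls were led by CITED2 (43.6% to 33.9%), IRAG2 (47.4% to 39.2%), RORB (43.4% to 37.1%) and PAX5 (69.8% to 65.3%). Of the loci called higher at 96 h, 10 were shared by both kinds of viewpoint, 40.0% of the 25 enhancer calls and 83.3% of the 12 CBS calls, CCR1, CD14, CD163 and PTPRC among them. IRAG2 and RORB were called lower at both.

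Where on the chromosome the far fragments lay was compared with genes. Bins of 1 Mb were ranked by their number of protein-coding gene starts, and the upper 1 of 3 parts of the bins of each chromosome was called gene-rich, which was 25.9% to 33.7% of bins. This measure was added after the data had been seen. For correlation over bins only pairs with 1 far fragment were counted, so pairs with both fragments far are in the gene-rich share but not here. Across bins of a locus their log counts and the log number of coding starts were compared. The median Pearson r over loci was 0.40 in the 0 h enhancer library and 0.47 in the 96 h one. With the trend over distance taken out, the medians for these pairs with 1 far fragment were 0.49 and 0.54. Bins of 1 chromosome are not independent, and these values are a description.

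At the enhancer viewpoints 10 loci were called higher in the share of far counts in gene-rich bins at 24 h (19.6%), all of them iMac loci, and 4 lower (7.84%), all of them B cell loci. At 96 h 15 loci were called higher (29.4%) and 10 lower (19.6%). The 15 were iMac loci and the 10 B cell loci, and all 15 B cell loci had a log2 odds ratio below 0, with a median of -0.31. The iMac median was 0.20.

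At 96 h EPS8 went from 28.1% to 39.7% (log2 odds ratio 0.75, 0.70 to 0.80), PELI1 from 31.8% to 43.1% and CEBPA from 23.8% to 33.4%. At 24 h TNFSF10 (35.4% to 45.1%), PELI1 (to 40.7%) and CD93 (19.5% to 25.5%) were among the largest rises. PELI1 had thus taken most of its change by 24 h.

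Among the B cell loci IRAG2 had 41.1%, 34.0% and 30.0% over the 3 times (log2 odds ratio at 96 h -0.70, -0.76 to -0.64). BCL11A had 24.8%, 19.7% and 17.6%, RAG2 24.1%, 20.5% and 19.3%, and IGLL5 went from 60.6% to 52.9%. MYB went from 31.6% to 27.7% at 24 h. At IRAG2, BCL11A and RAG2 the share was lower at each later time.

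**Figure D5:**
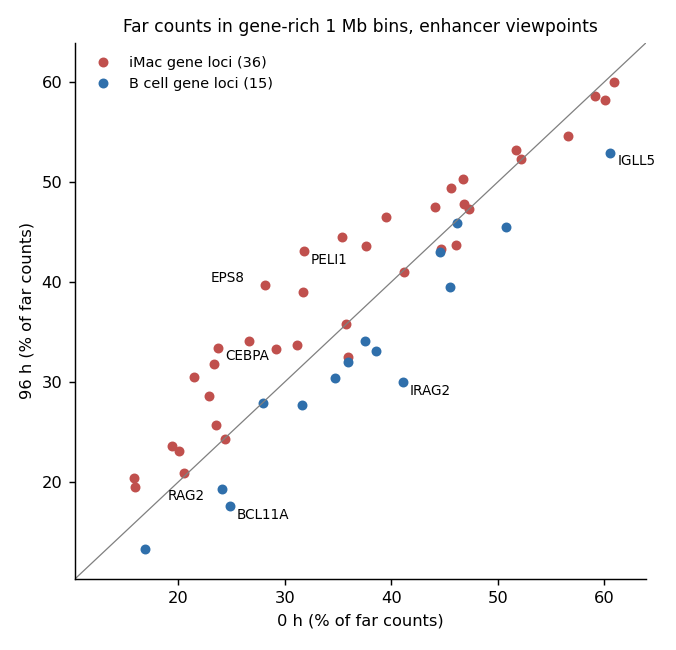
Share of far counts whose farther fragment lay in a gene-rich 1 Mb bin (upper 1 of 3 parts of the chromosome's bins by coding gene starts) at the 51 enhancer viewpoints, at 0 h (x axis) and 96 h (y axis). Red points are iMac loci, blue points B cell loci, and the line marks equal shares. The 15 B cell loci lie below the line, and EPS8, PELI1 and CEBPA are among the points farthest above it.

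In the plot of gene-rich shares the 15 B cell loci lie below the line of equal shares. Of the 36 iMac loci 27 lie above it and 9 below, so the lists overlap there. Both lists run over most of the length of the line.

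In the CBS libraries fewer loci passed. At 24 h 4 were called higher (7.84%) and 1 lower (1.96%), with PAX5 (40.0% to 48.0%), TNFSF10 (35.3% to 40.4%), TRIB1 (29.0% to 33.1%) and KDM7A (59.1% to 63.5%) higher and BCL11A (19.8% to 16.7%) lower. At 96 h 5 were called higher (9.80%) and 8 lower (15.7%). All 5 higher, which included CEBPA, EPS8, PELI1 and TNFSF10, were among the 15 called at the enhancer viewpoints (33.3% of these). Of the 8 lower, 5 were among the 10 enhancer calls, BCL11A, IGLL5, IL7R, IRAG2 and RORB, which is 62.5% of the CBS calls.

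Between the depleted library and the control 11 loci were called higher in this share (21.6%) and 9 lower (17.6%). ATP8B4 went from 20.9% to 27.6%, MPEG1 from 52.3% to 61.0% and GAS7 from 35.8% to 43.8%. ITGAX went from 34.1% to 23.8%, RBPJ from 31.8% to 22.4%, LYN from 24.3% to 16.97% and IL10RA from 46.5% to 36.8%. Of the B cell loci 5 were called higher and none lower, and of the iMac loci 6 higher and 9 lower. With only far counts beyond 5 Mb, 5 loci were higher and 2 lower.

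All viewpoints of a kind were captured in the same libraries, so far counts at the other captured viewpoints of a chromosome were set against their surroundings. Per fragment within 10 kb of another viewpoint of the same kind, the far counts were 0.94, 1.33, 1.24 and 1.04 times those at 10 to 100 kb from it in the enhancer libraries at 0 h, 24 h, 96 h and 96 h depleted, over 110 combinations of locus and viewpoint. At viewpoints captured only in the CBS libraries, the ratios in the same enhancer libraries were 0.99, 0.79, 1.01 and 1.09. In the CBS libraries the ratios at viewpoints of the same kind were 0.79, 0.78 and 0.83, and at enhancer viewpoints 0.99, 1.19 and 1.07. These are ratios of pooled counts, and the exact 95% interval for counting error lay above 1 at enhancers in the 24 h and 96 h enhancer libraries (1.25 to 1.40 and 1.17 to 1.32) and the 24 h CBS library (1.08 to 1.30), and at CBS viewpoints in the depleted library (1.02 to 1.15). Most combinations did not share this excess. In the same order the ratio was above 1 in 47, 54, 43 and 45 of 110 combinations, with medians of 0.80, 0.99, 0.70 and 0.76, so a few combinations carried the pooled values. The interval lay below 1 at CBS viewpoints in the CBS libraries at 0, 24 and 96 h (0.71 to 0.89, 0.69 to 0.87 and 0.75 to 0.92). It also lay below 1 at CBS viewpoints in the 24 h enhancer library (0.73 to 0.85). The combinations are not independent, since a viewpoint is seen from several others.

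The pairs with the largest excess of counts were looked up after the values were seen. At 24 h it was SRGN and DDIT4, whose enhancer viewpoints lie 3.26 Mb apart. From the DDIT4 viewpoint the ratio at the SRGN enhancer was 0.65, 4.02, 1.45 and 1.74 in the enhancer libraries in the order given above, on 16, 149, 54 and 94 counts. From the SRGN viewpoint the ratio at the DDIT4 enhancer was 1.55, 2.80, 2.12 and 1.17, on 34, 112, 65 and 73 counts. Both directions were highest at 24 h, but the pair was picked for its excess at that time, so this is a description and not separate evidence.

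At 96 h the excess was largest from RAG2 at the LMO2 enhancer, 2.69 Mb away, when each direction was taken by itself. From the RAG2 enhancer the ratio at the LMO2 enhancer was 0.89, 1.39, 2.07 and 1.203 in the same order, on 44, 61, 75 and 60 counts. In the other direction, from LMO2 at the RAG2 enhancer, it was 0.79, 1.54, 0.97 and 0.62, on 33, 50, 21 and 39 counts, so the rise at 96 h was seen in 1 direction. From the CBS viewpoint of RAG2 it was 1.48, 2.21 and 1.07 at 0, 24 and 96 h, on 37, 66 and 32 counts. The 2 kinds of viewpoint thus had their highest value at different times. The part of the shared capture in these counts was not tested, and leaving out all fragments within 10 kb of other viewpoints moved no count of called loci by more than 1.5 times.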

How the data were processed

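Tri-C was measured in 21 samples, 7 conditions with 3 biological replicates each. Per the study's methods, the authors merged replicates, aligned reads to hg38 and counted every pair of fragments from molecules with at least 2 fragments besides the viewpoint. The deposited files, 1 per locus and library, list whole-number counts of fragment pairs on the viewpoint's chromosome, not normalized. All 32076082 fragment entries lay between NlaIII sites of hg38. 357 files of 51 loci were used, and IFNGR2 and TASL were left out.

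Far pairs were found as stated in the report. Shares were compared per locus with Fisher's exact test (SciPy 1.17.1, Python 3.11.15, NumPy 2.4.6, pandas 2.3.3), adjusted by Benjamini-Hochberg over 51 loci. The test was also run on simulated independent counts at the real depths. These hold counting error only, without spread between replicates or several pairs from 1 molecule, so they check the calculation and not the calls. Sequences were read with pysam 0.24.0 and genes taken from GENCODE 44. The members and gene lists were chosen with earlier results of these data known. Loci were named by a rule: those the study text shows, the 5 highest and 5 lowest far shares at 0 h, the 4 largest calls each way per comparison, and loci that share a chromosome with another viewpoint where those values are described. Far fragments were named by count among those seen in all 7 libraries. The gene-rich measure and loci named outside the rule were chosen after seeing the data. Alternatives changed the far and split distances, the counting, the viewpoint position, the odds ratio and the loci or fragments kept. Libraries held 3053885 to 5273712 counts. Values of some loci and sequences that the rule would name are not reported here.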

Additional observations from a re-analysis of the deposited data

Results flagged for a closer look

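For 3 results at 2 loci the later library was called higher at one kind of viewpoint and lower at the other, each at an adjusted p under 0.05 with an odds ratio of at least 1.2, with the difference tested from the counts of both pairs of libraries and an interval that covers counting error only. At PAX5 the far share went from 23.5% to 27.3% at the enhancer and from 28.4% to 24.8% at the CBS viewpoint between 0 h and 24 h, and the log2 odds ratios differed by 0.55 (95% interval 0.49 to 0.61). At ITGAX the share of far counts beyond 10 Mb went from 53.1% to 58.4% at the enhancer and from 57.5% to 53.0% at the CBS viewpoint between 0 h and 96 h, a difference of 0.58 (0.46 to 0.69). The share of far counts in gene-rich bins at ITGAX went from 26.6% to 34.1% and from 34.5% to 28.0% over the same time, a difference of 0.96 (0.84 to 1.08). What sets these viewpoints apart was not tested.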

How the results depend on the processing

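No paired analysis was possible because the 3 replicates of each condition were merged before deposit, and leaving out replicates was not run for the same reason. Of 463 counts of called loci and library shares under alternatives, 339 stayed within 1.5 times the value or within its counting interval and 124 moved. Of 362 medians of log2 odds ratios, 267 moved by less than the median interval arm of a locus's 95% counting interval, 83 moved by more, and 12 that lay farther than this from 0 changed sign. Counts divided by 3, the viewpoint at the capture oligonucleotide, and the removal of other viewpoints moved none. The cause of the moves below was not tested, except that a changed odds ratio changes how many loci pass. Pairs of counts are loci called higher and lower.

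With each fragment pair counted once, the far share was 47.39%, 47.03%, 47.95% and 55.29% in the enhancer libraries at 0 h, 24 h, 96 h and 96 h depleted and 39.72%, 38.14% and 41.60% in the CBS libraries. With only pairs with a fragment beyond 10 kb it was 39.91%, 39.88%, 40.56% and 43.03%, and 33.15%, 32% and 35.17%. Without pairs of fragments within 10 kb of each other it was 47.58%, 47.03%, 47.87% and 52.71%, and 39.75%, 38.19% and 41.79%. By the gap rule alone, an alternative chosen after seeing the data, it was 38.07%, 37.74% and 38.72% in the parental enhancer libraries and 38.77%, 31.88% and 39.21% in the CBS libraries. Without the leading far fragments, also chosen after seeing the data, it was 36.79%, 36.65%, 37.70% and 39.56%, and 30.58%, 29.69% and 32.85%.

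For the far share in the depleted library against the control (15 and 4), counts were 41 and 0 with both fragments far, 37 and 0 with pairs counted once, 3 and 12 with far at 2 Mb, 24 and 0 without pairs within 10 kb, 1 lower with a fragment beyond 10 kb, 3 and 0 at an odds ratio of 1.5, and 32 and 15 with no odds ratio. The B cell median of -0.03 became 0.37 with both far, 0.28 with pairs counted once, 0.061 with far at 0.5 Mb, 0.0088 with a fragment beyond 10 kb and 0.11 without pairs within 10 kb. The iMac median of 0.13 became -0.058 with far at 2 Mb.

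For the enhancer libraries at 24 h (6 and 5), counts were 8 lower with both far, 3 and 2 with far at 2 Mb, 1 and 0 at an odds ratio of 1.5, 20 and 24 with none, and 1 lower without loci of a misplaced gap. At 96 h (10 and 12) they were 3 and 3 at an odds ratio of 1.5 and 27 and 22 with none, and the iMac median of -0.09 became 0.025 with far at 2 Mb. For the CBS libraries at 24 h (5 and 9), counts were 3 higher with pairs counted once and without pairs within 10 kb, 4 lower with far at 0.5 Mb, 2 higher with far at 2 Mb, 0 and 1 at an odds ratio of 1.5 and 16 and 24 with none, and the B cell median of 0.12 became -0.010 with far at 2 Mb. At 96 h (20 and 7) they were 12 and 14 with both far, 11 lower without pairs within 10 kb, 4 and 1 at 1.5, 19 lower with none, and 3 lower without loci of a misplaced gap.

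For the CBS against the enhancer viewpoints at 0 h (5 and 34), counts were 9 higher with far at 0.5 Mb, 1 higher at 2 Mb, 2 and 22 at an odds ratio of 1.5, and 11 higher by the gap rule alone. At 24 h (3 and 36) they were 6 higher with both far, without pairs within 10 kb and with no odds ratio, 11 and 21 with far at 0.5 Mb, 0 higher at 2 Mb, 20 lower at 1.5, and 5 higher by the gap rule alone. At 96 h (6 and 37) they were 13 and 17 with far at 0.5 Mb, 1 higher at 2 Mb, 3 and 15 at 1.5, 10 higher with none, and 11 higher by the gap rule alone.

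For the share beyond 10 Mb with no odds ratio, counts were 15 and 29 in the enhancer libraries at 24 h (5 and 9), 38 and 7 at 96 h (25 and 4), 1 and 42 in the CBS libraries at 24 h (0 and 17) and 26 and 15 at 96 h (12 and 6). At 24 h in the enhancer libraries 3 were higher with the split at 20 Mb and without loci of a misplaced gap. With all counts as denominator, chosen after seeing the data, 1 locus was lower in the enhancer library at 24 h and 1 higher in the depleted library, and the B cell medians of -0.27 in the enhancer library at 24 h and -0.14 in the CBS library at 96 h became 0.012 and 0.31. With the split at 5 Mb 1 locus was higher in the depleted library, and by the gap rule alone 2 were higher in the CBS library at 24 h.

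The share in gene-rich bins and its alternatives were all added after seeing the data. With no odds ratio, counts were 36 and 7 in the enhancer libraries at 24 h (10 and 4), 18 lower at 96 h (10), 24 and 21 in the depleted library (11 and 9), 23 and 12 in the CBS libraries at 24 h (4 and 1) and 16 and 19 at 96 h (5 and 8). With only counts beyond 5 Mb they were 5 and 2 in the depleted library and 1 and 0 in the CBS library at 24 h, where the B cell median of -0.10 became 0.014. At 24 h in the CBS libraries 2 were higher with pairs counted once and 3 lower with the upper 0.5 of bins as gene-rich. At 96 h there 3 were higher without loci of a misplaced gap. In the depleted library the iMac median of -0.07 became 0.031 without pairs within 10 kb.

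Depth limited the counting error of a share per locus, with 18795 counts at the locus of lowest total in any library. It does not limit the calls, which rest on an odds ratio. With 1 library per condition, the spread between repeats is unknown for every comparison.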
